A study of Mus musculus with 18 samples.

Results

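The mRNAs described here are those of signalling kinases and phosphatases that carried a peak of N4-acetylcytidine (ac4C) in the mouse hippocampus. They were chosen by the start of their gene name in the acRIP-seq peak lists: the families Mapk, Map2k to Map4k, Camk, Prk, Pik3, Pip4k and Pip5k, Akt, Ppp, Ptpn and Ptpr, Dusp, Dgk, Mark, Cdk, Gsk3, Rps6k, Stk, Csnk, Wnk, Tnik, Ntrk, Fgfr and Inpp. The rule itself used no measured value other than being listed, but the families were picked with earlier results of these data known. It gave 165 of the 4922 mRNAs with a peak in at least 1 of the 6 lists. Of the 165, 8 were set apart by name as neither a kinase or phosphatase nor a subunit of one. Among them are the mTORC2 subunit Mapkap1 and the scaffold Mapk8ip3. The set is not complete, since inhibitors such as Camk2n1 and proteins without catalytic activity such as Camkv and Ptprn were kept. The samples are hippocampi of mice aged 3 months, 3 WT and 3 5xFAD. 5xFAD mice are a transgenic model of amyloid pathology on the C57BL/6J background that expresses, among its transgenes, human APP with the Swedish, Florida and London mutations, by the study's description from the murine Thy1 promoter. WT mice do not carry the transgenes. The sources used here describe the sex of the mice in differing ways and do not give it for these samples, and they do not say whether a sample was 1 mouse.

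Kinases transfer phosphate to proteins or lipids and phosphatases remove it, and the balance between them sets the strength of most signalling pathways in a neuron. In the hippocampus, calcium/calmodulin-dependent kinases, PKA, PKC, calcineurin and protein phosphatase 1 act downstream of synaptic calcium and cAMP and are known for their part in synaptic plasticity, while kinases such as GSK3, CDK5, CK1 and MARK phosphorylate tau. ac4C is an acetylated cytidine installed in RNA by Nat10, and in mRNA it is known for effects on stability and translation.

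In acRIP-seq, RNA fragments are pulled down with an antibody against ac4C and sequenced. Each peak has a fold enrichment (FE), which the methods define as the ratio to input of the acRIP signal less that of an IgG pull-down. The FE values of all peaks on an mRNA were added up. A sample without a peak on an mRNA was given an FE of 0, which says that no peak was listed and not that ac4C was absent. An mRNA was taken as reproducible in a genotype when 2 or 3 of the 3 samples listed it. The groups are called WT only (the AD absent mRNAs), both (overlay) and 5xFAD only (AD unique). FE was not scaled between samples, and the sequencing depth is unknown here because the lists give no read numbers. The lists held 4151 to 4558 peaks in WT and 3734 to 3921 in 5xFAD. Of 8 neuronal marker genes 7 had a peak in some list, as did 3 of 5 interneuron, 5 of 5 astrocyte and 4 of 5 oligodendrocyte markers. So did 2 of 5 microglia, 2 of 3 vessel, 1 of 2 choroid plexus and 0 of 2 blood and liver markers. Listed in at least 2 samples of WT and of 5xFAD were 6 and 5 neuronal, 2 and 0 interneuron and 3 and 3 astrocyte markers. For oligodendrocytes these were 3 and 3, for microglia 2 and 1, for vessels 1 and 1 and for choroid plexus 1 and 0. Mouse App and Thy1 were listed in every WT sample and never in 5xFAD, and these lists cannot show whether the transgenes were expressed. In bulk tissue, fewer cells of a type and less RNA per cell cannot be told apart.

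Fewer kinase and phosphatase mRNAs carried a peak in 5xFAD than in WT. They numbered 104, 112 and 110 in WT replicates 1, 2 and 3 and 90, 85 and 78 in 5xFAD replicates 1, 2 and 3. Every WT sample was above every 5xFAD sample, with means of 109 ± 4.16 and 84.3 ± 6.03 (SD, n = 3). The number of all listed mRNAs also fell without overlap, from 2857 ± 96.5 in WT to 2630 ± 47.4 in 5xFAD (SD, n = 3). Kinase and phosphatase mRNAs were 3.80% ± 0.0190 of these in WT and 3.21% ± 0.236 in 5xFAD (SD, n = 3), without overlap. The peaks of kinase and phosphatase mRNAs numbered 168 ± 7.37 in WT and 132 ± 5.77 in 5xFAD (SD, n = 3), and made up 3.84% ± 0.0773 and 3.44% ± 0.111 of all peaks. The summed FE of these mRNAs was 9217, 10190 and 10911 in WT and 7657, 8297 and 7795 in 5xFAD. The genotypes did not overlap, and the 5xFAD mean was 0.783 times the WT mean, against 0.829 for all mRNAs. Without the 8 names set apart above this ratio was 0.859. Of the summed FE over all mRNAs they took 2.59% ± 0.0806 in WT and 2.45% ± 0.117 in 5xFAD (SD, n = 3), where the samples overlapped. No p is given for these sums, since the family list was drawn up with earlier results of these data known.

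Of the 165 mRNAs, 153 were reproducible by this rule and 12 were not. WT only held 67 of the 153 (43.8%), where 40.4% of all reproducible mRNAs were WT only. Both genotypes held 46 (30.1%, against 24.9% of all), and 5xFAD only held 40 (26.1%, against 34.6%). In the strictest form, 48 were listed in every WT sample and never in 5xFAD, 28 were listed in every 5xFAD sample and never in WT, and 32 in all 6 samples. These are 31.4%, 18.3% and 20.9% of the 153, against 29.3%, 25.6% and 16.2% of all reproducible mRNAs. A list of 66 of the best-studied names of these families was to be described whatever their values, and 48 had a peak. The other 18 had no peak in any list, among them Mapk3, Mapk8, Camk4, Akt2, Mark2, Mark3, Csnk2a1, Ntrk3, Stk11, Pik3r1, Pip4k2a, Inpp5d, Ptpn11, Dusp1, Dusp6, the calcineurin subunit Ppp3cb and Ppp1r1b, a dopamine-regulated inhibitor of protein phosphatase 1.

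**Figure D1:**
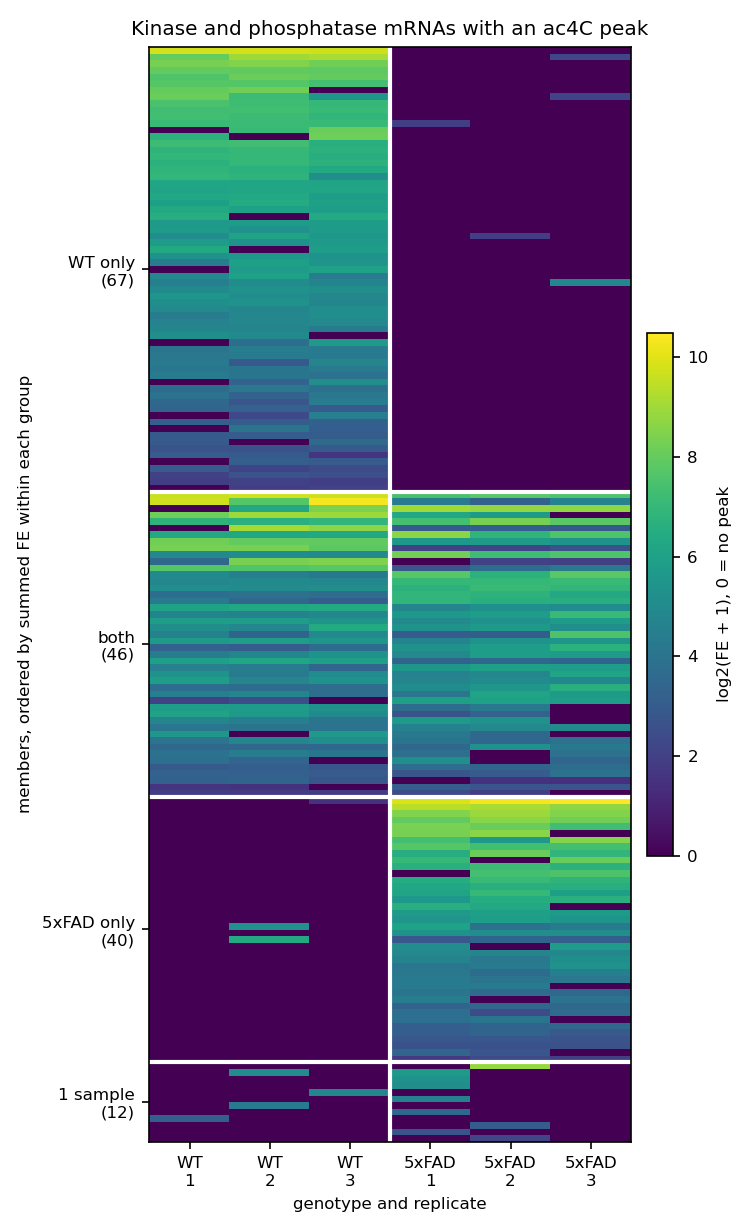
Each row is 1 of the 165 kinase and phosphatase mRNAs and each column 1 sample, coloured by log2(FE + 1), with 0 where no peak was listed. Rows are grouped into WT only (67), both (46), 5xFAD only (40) and mRNAs with a peak in at most 1 sample of a genotype (12), and the WT only and 5xFAD only blocks are almost empty in the other genotype's samples.

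Among the 46 overlay mRNAs, limma on log2(FE + 1) with Benjamini-Hochberg adjustment over all 1121 overlay mRNAs called 13 higher and 10 lower in 5xFAD (adjusted p under 0.05 and at least a 2-fold change), and 23 were not called. The 13 are 28.3% of the 46, where 20.8% of all overlay mRNAs were called higher, and the 10 are 21.7%, where 32.3% were called lower. A fit over all reproducible mRNAs, in place of the overlay ones, called 28.1% of 153 higher, against 32.3% of all, and 40.5% lower, against 39.6%. Most of these 153 had a reproducible peak in 1 genotype alone, which largely fixed their direction. That fit therefore mainly restates the WT only and 5xFAD only counts. The median log2 fold change (5xFAD minus WT) was 0.16 over these 46 and -0.47 over all overlay mRNAs. When each sample was centred on its median, 18 of the 46 were called higher and 7 lower, and over all overlay mRNAs 329 and 292 in place of 233 and 362. All 5xFAD samples lay above all WT samples in 18 of the 46, against 28.5% of all overlay mRNAs, and the reverse held for 14, against 39.4%. The spread within a genotype was wide: the coefficient of variation of FE over 3 samples had a median of 20.7% in WT and 35.1% in 5xFAD.

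**Figure D2:**
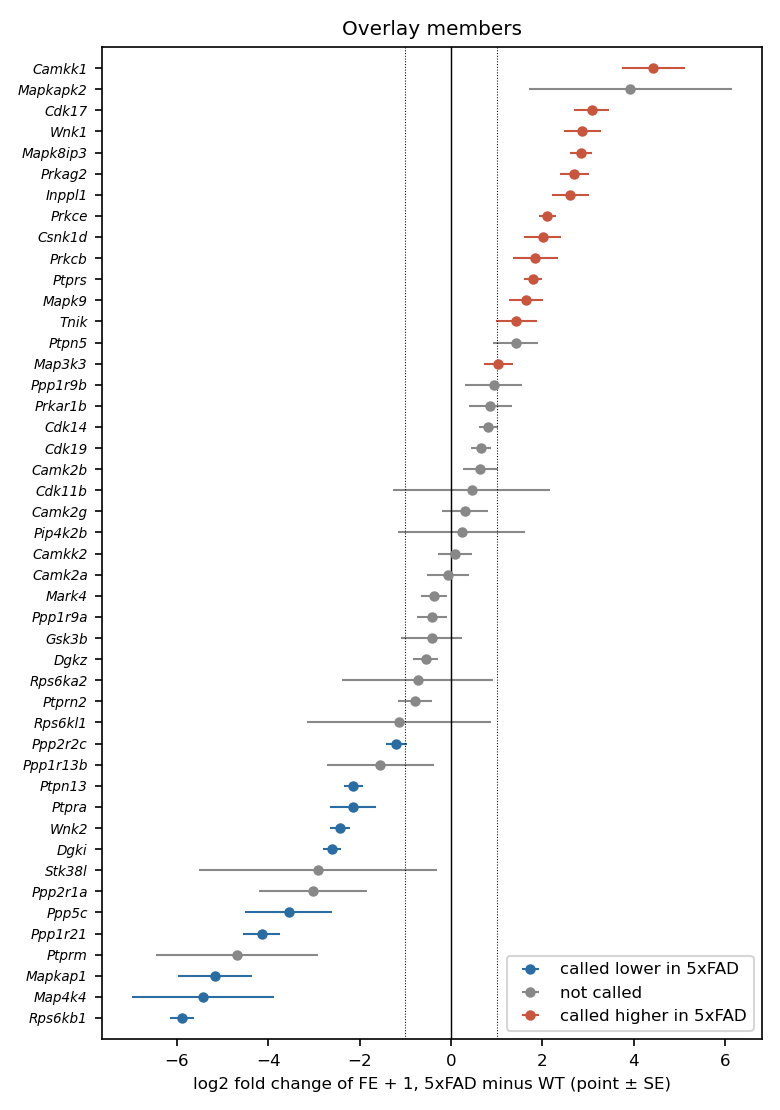
Points are the fitted log2 fold changes of FE + 1 (5xFAD minus WT) of the 46 overlay mRNAs with their standard errors, coloured by the limma call. The dotted lines mark the 2-fold threshold. Camkk1 lies at the upper end at 4.43 and Rps6kb1 at the lower end at -5.89.

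Calcium/calmodulin-dependent kinases were 10 of the 165, and none of them was 5xFAD only: 5 were WT only and 5 were in both. The summed FE of the class was 334, 346 and 413 in WT and 160, 202 and 231 in 5xFAD, without overlap. Camk1, a kinase activated by CaMKK that acts in neurite growth, had an FE of 176, 150 and 127 in WT and no peak in 5xFAD, and without it the ratio of 5xFAD to WT for the class was 0.928 in place of 0.543, with overlap. Camkv, a kinase-like protein of synapses that lacks catalytic activity, had 24.1, 28.2 and 29.7 in WT and no peak in 5xFAD. Both CaMKII inhibitors, Camk2n1 and Camk2n2, were WT only. The other WT only member of the class was Camk1d.

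The CaMKII subunits themselves, the most abundant kinases of the postsynaptic density, were in both genotypes and were not called. Camk2a had an FE of 35.2, 27.7 and 83.2 in WT and 40.0, 48.6 and 36.3 in 5xFAD (log2 fold change -0.07 ± 0.46 SE, adjusted p = 0.915 by limma with Benjamini-Hochberg adjustment). The groups overlapped, and what differed was where the peaks lay. Camk2a held the largest number of regions of any of these mRNAs, 10, of which 4 were called in WT alone, 3 in 5xFAD alone and 2 in both. A shared coding region in exon 5 of 7 of a short Camk2a transcript had 3.54, 4.38 and 2.92 in WT and 14.95, 18.3 and 15.1 in 5xFAD, with every 5xFAD sample above every WT sample. The other shared region, exon 10 of 18 of the full-length transcript, had 7.05 and 4.69 in WT replicates 1 and 2, no peak in WT replicate 3, and 5.20, 5.41 and 4.31 in 5xFAD. Camk2b had 21.0, 27.2 and 39.7 in WT and 29.5, 55.9 and 54.1 in 5xFAD, and Camk2g had 39.1, 19.3 and 32.0 and 24.2, 27.6 and 68.4. In both mRNAs the groups overlapped.

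Camkk1, a calcium/calmodulin-dependent kinase kinase that activates CaMKI and CaMKIV, was called higher. It had an FE of 3.16 and 4.56 in WT replicates 1 and 2, no peak in WT replicate 3, and 60.7, 62.4 and 58.1 in 5xFAD. Every 5xFAD sample was above every WT sample, with a fitted log2 fold change of 4.43 ± 0.69 (SE) and an adjusted p of 0.00351 (limma, Benjamini-Hochberg), in which the sample without a peak entered as 0. Without that sample the log2 fold change was 3.67. The WT peak and the 5xFAD peak did not lie at the same place. The WT peak was at the stop codon in exon 16 of 16, and the 5xFAD peak covered exon 10 exactly. Its relative Camkk2 had 8.87, 8.27 and 6.96 in WT and 5.80, 7.30 and 14.4 in 5xFAD, with overlap. Shown are the 5xFAD region of Camkk1, as the strongest gain of the class, and the coding region that Camk2b shared between genotypes, in sense orientation from the RefSeq genome (GRCm38). Capitals mark overlapping or separate matches to CNNCNNCNNCNN, 4 repeats of C followed by any pair of bases, searched on the sense strand only.
Camkk1 exon 10, chr11:73033759-73033958, plus strand, called in 5xFAD alone: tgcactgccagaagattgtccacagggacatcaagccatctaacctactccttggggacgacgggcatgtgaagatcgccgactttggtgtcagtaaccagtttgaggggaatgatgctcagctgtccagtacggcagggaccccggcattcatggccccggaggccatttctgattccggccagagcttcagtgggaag
Camk2b exon 17, chr11:5979673-5979721, minus strand, called in both: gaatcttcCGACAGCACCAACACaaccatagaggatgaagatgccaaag
The Camkk1 region held no match, and the Camk2b region held 2 overlapping ones. Such a match is a description of the letters and not a mapped site. Over the central 60 bp of coding regions the motif was present in 28.9% of 128 regions of kinase and phosphatase mRNAs and in 27.7% of 3490 regions of all mRNAs.

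The summed FE of PKA, PKC and AMPK mRNAs was higher in 5xFAD, at 445, 626 and 708 in WT and 1488, 2188 and 1904 in 5xFAD, a ratio of 3.14. By name the class also holds Prkcsh and Prkcdbp, which are no kinases. The difference rested on Prkar2b, the RIIβ regulatory subunit of PKA that is enriched in brain, which was singled out after its values were seen. Prkar2b had no peak in WT replicates 1 and 2, an FE of 1.92 in WT replicate 3, and 944, 1275 and 1432 in 5xFAD. Without Prkar2b the ratio of the class was 1.09 and the samples overlapped. Its FE came from regions in exons 9 and 11 of 11, of which the exon 9 region had 658, 817 and 895 in 5xFAD and no peak in WT.
Prkar2b exon 9, chr12:31963898-31963931, minus strand, called in 5xFAD alone: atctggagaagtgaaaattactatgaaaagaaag
This region, printed as the source of the largest gain of any of these mRNAs, is short and poor in cytidine, with a C content of 5.88%, and it held no match to the motif.

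Within these kinases, related subunits were listed in opposite genotypes. Of 5 PKA subunits, Prkaca, the main catalytic subunit, had 54.6, 40.6 and 54.9 in WT and no peak in 5xFAD, while Prkacb, the other catalytic subunit, had no peak in WT and 9.01, 10.7 and 10.3 in 5xFAD. Prkar1a was WT only, with 76.8, 80.2 and 57.1. Prkar1b was in both, with 10.4, 10.0 and 10.4 in WT and 10.6, 38.0 and 17.9 in 5xFAD, and was called only without 5xFAD replicate 1 (log2 fold change 1.27) or after median centring. Of the AMPK subunits, the catalytic Prkaa2 was WT only, with 73.7, 73.3 and 69.5, and the catalytic Prkaa1 was 5xFAD only, with 88.4, 134 and 112. Prkag2, the γ2 subunit that binds AMP, was called higher, with 29.8, 33.3 and 29.4 in WT and 301, 147 and 193 in 5xFAD (log2 fold change 2.69 ± 0.32 SE, adjusted p = 0.00120, limma with Benjamini-Hochberg adjustment). The groups did not overlap, and the regions lay in exon 14 in WT and in exons 1, 3, 4, 6 and 7 in 5xFAD. With the mean FE of its peaks in place of the sum, the adjusted p was 0.0684.

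Among the PKC isoforms, the conventional Prkca and the atypical Prkcz were WT only, and Prkcb and Prkce were called higher. Prkcz, whose brain transcript encodes a kinase fragment studied in memory, had 104, 127 and 106 in WT and no peak in 5xFAD. Prkca had 31.1, 27.5 and 34.1 in WT, from a region in its 3′ UTR, and no peak in 5xFAD. Prkce, a calcium-independent isoform, had 28.2, 31.2 and 27.5 in WT and 127, 124 and 134 in 5xFAD, a log2 fold change of 2.11 ± 0.18 (SE) with an adjusted p of 0.000413 (limma, Benjamini-Hochberg). All 5xFAD samples lay above all WT samples. Prkce held 8 regions, and they did not move together: the region shared by both genotypes, in exon 12 of 15, was lower in 5xFAD, at 11.5, 14.04 and 12.1 in WT and 4.22, 4.55 and 3.48 in 5xFAD. A region in exon 6 had no peak in WT and 91.5, 81.6 and 70.1 in 5xFAD. The pair is printed because it shows opposite orders within 1 mRNA.
Prkce exon 12, chr17:86619892-86620030, plus strand, called in both: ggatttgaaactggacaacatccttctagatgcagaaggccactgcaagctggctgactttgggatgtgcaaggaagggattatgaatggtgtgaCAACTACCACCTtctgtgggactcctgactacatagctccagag
Prkce exon 6, chr17:86482120-86482236, plus strand, called in 5xFAD alone: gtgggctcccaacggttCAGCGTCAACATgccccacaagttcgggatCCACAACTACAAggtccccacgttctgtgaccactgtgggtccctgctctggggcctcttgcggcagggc
The exon 6 region had a C content of 34.2% and 2 separate matches, and the exon 12 region 21.6% and 1 match. Prkcb was at a far lower FE, 2.04 and 1.86 in WT replicates 1 and 2, no peak in WT replicate 3, and 7.72, 5.82 and 5.80 in 5xFAD. Its call (adjusted p = 0.0265, limma with Benjamini-Hochberg adjustment) was lost with a pseudocount of 0.1 or 10 and without any 1 of the 5xFAD samples (log2 fold change 1.73 to 1.91, against 1.85).

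**Figure D3:**
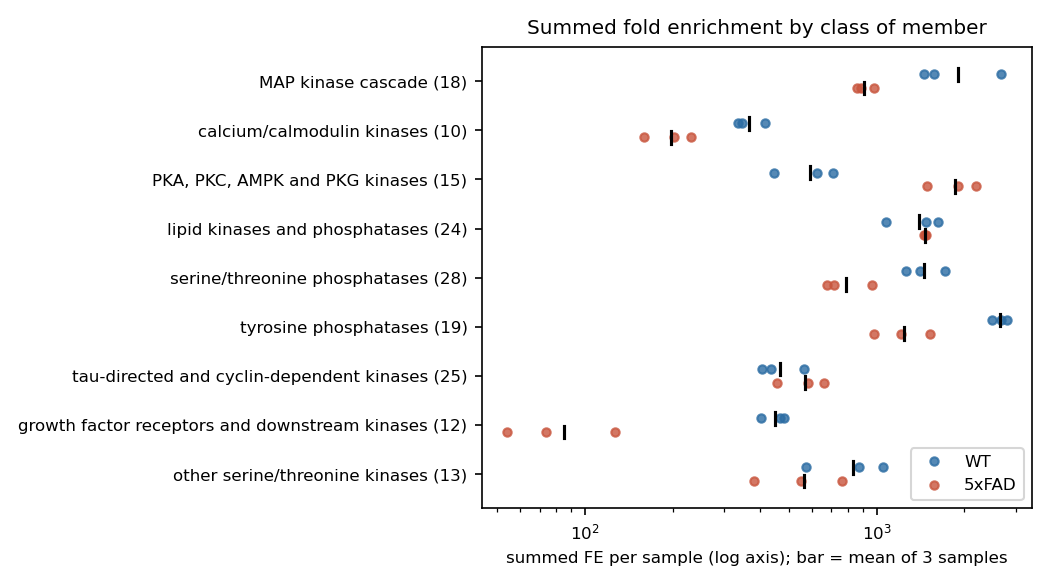
Points are the FE of 1 sample summed over the mRNAs of a class (number of mRNAs in parentheses), on a log axis, and black bars are means over 3 samples. The PKA, PKC and AMPK class lies higher in 5xFAD (mean 1860 against 593 in WT), the lipid and the tau-directed classes overlap between genotypes as do the other serine/threonine kinases, and the remaining classes lie lower in 5xFAD, of which the MAP kinase, calmodulin kinase and serine/threonine phosphatase classes overlap without their strongest mRNA. In the tyrosine phosphatase class Ptprz1 and Ptpn13 together made up most of the WT sum. The dual-specificity phosphatases, with the mRNA Dusp26 alone, are not drawn.

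The MAP kinase cascade held 18 mRNAs, 9 WT only, 6 in both and 3 5xFAD only. Its summed FE was 1570, 1456 and 2668 in WT and 885, 977 and 855 in 5xFAD, without overlap. Mapkap1, which is no kinase, carried 41.5% of the WT sum, and without it the ratio of 5xFAD to WT was 0.799 in place of 0.477, with 729, 1248 and 1357 in WT and 865, 968 and 832 in 5xFAD, an overlap. All 3 MAP2K genes were WT only: Map2k1, the MEK1 kinase of the ERK pathway, with 16.2, 15.8 and 18.9, Map2k5 with 120, 127 and 91.1, and Map2k7, a kinase of JNK, with peaks in replicates 2 and 3 alone. Of 6 MAP3K genes 4 were WT only, namely Map3k2, Map3k12, Map3k13 and Map3k9, a mixed-lineage kinase upstream of JNK with 59.8, 86.3 and 61.9. Map3k3 was called higher, with 111, 99.8 and 120 in WT and 162, 320 and 224 in 5xFAD (log2 fold change 1.04 ± 0.31 SE, adjusted p = 0.0361, limma with Benjamini-Hochberg adjustment). The genotypes did not overlap, but the call was lost without any 1 sample other than 5xFAD replicate 1 (log2 fold change 0.79 to 1.10), and also with a pseudocount of 10, a replicate block or an FDR under 100%.

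The JNK branch was listed in both directions. Mapk10, the JNK3 kinase found mainly in the nervous system, had 31.7, 40.1 and 35.2 in WT and no peak in 5xFAD. Mapk9, the JNK2 kinase, was called higher, with 22.6, 20.23 and 9.59 in WT and 45.9, 59.7 and 55.8 in 5xFAD (log2 fold change 1.64 ± 0.37 SE, adjusted p = 0.0143, limma with Benjamini-Hochberg adjustment). Mapk8ip3, the JIP3 scaffold that links JNK to axonal transport, was also called higher, at 12.7, 14.02 and 12.7 in WT and 119, 108 and 79.1 in 5xFAD (2.85 ± 0.23 SE, adjusted p = 0.000360). In neither did the genotypes overlap. Neither had a region in common between genotypes: the WT regions of Mapk9 lay in exons 5 and 6 and its 5xFAD regions at the start codon and in the 3′ UTR. No peak was listed for Mapk3 or Mapk8, the ERK1 and JNK1 kinases, in any of the 6 samples.

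Map4k4 and Mapkap1 were called lower. Mapkap1, a subunit of the mTORC2 complex that acts on AKT and PKC, had 842, 208 and 1311 in WT and 19.4, 8.68 and 23.9 in 5xFAD, a log2 fold change of -5.17 ± 0.81 (SE) with an adjusted p of 0.00349 (limma, Benjamini-Hochberg). The WT samples differed widely among themselves and all lay above the 5xFAD samples. Without WT replicate 2 the log2 fold change was -5.95. Both of its regions were called in both genotypes with the same order, and that in exon 5 is printed because the same letters carried an FE of 322, 82.3 and 518 in WT and 7.83, 8.68 and 7.03 in 5xFAD.
Mapkap1 exon 5, chr2:34497735-34497873, plus strand, called in both: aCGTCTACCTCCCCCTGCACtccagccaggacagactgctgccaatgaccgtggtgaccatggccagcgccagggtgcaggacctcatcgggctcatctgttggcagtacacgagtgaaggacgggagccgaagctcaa
The matches, 3 that overlap, lie at its 5′ end. Map4k4, a kinase upstream of JNK, had 10.7, 324 and 351 in WT and no peak, 3.25 and 2.95 in 5xFAD (adjusted p = 0.0316, limma with Benjamini-Hochberg adjustment). WT replicate 1 stood apart, and the call was lost when WT replicate 2, WT replicate 3 or 5xFAD replicate 1 was left out (log2 fold change -4.65, -4.59 and -4.75, against -5.43). Without WT replicate 1 it was -7.05. Mapkapk2, the MK2 kinase downstream of p38, had no peak in WT replicate 1, 78.4 and 339 in WT replicates 2 and 3, and 503, 442 and 421 in 5xFAD, and was not called (adjusted p = 0.195). Its 3′ UTR region was the shared one, and its strong 5xFAD region, with 495, 442 and 413, lay in exon 3 of 10.

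Lipid kinases and phosphatases held 24 mRNAs, 11 WT only, 4 in both and 8 5xFAD only, and their summed FE overlapped between genotypes (1393 ± 286 in WT and 1462 ± 8.62 in 5xFAD, SD, n = 3). Dgkh alone was 38.1% of the 5xFAD sum, and without it the ratio of 5xFAD to WT was 0.649 in place of 1.05 and every WT sample (1075 to 1627) lay above every 5xFAD sample (795 to 1021). Diacylglycerol kinases, which turn diacylglycerol into phosphatidic acid, were spread over all groups, 3 WT only, 2 in both and 3 5xFAD only. Dgkh had the highest FE of the mRNAs with a peak in all 5xFAD samples and none in WT, at 666, 573 and 434, and Dgkq had 207, 158 and 166. Dgki was called lower, with 60.2, 73.0 and 61.6 in WT and 9.33, 10.6 and 9.49 in 5xFAD (log2 fold change -2.61 ± 0.19 SE, adjusted p = 0.000247, limma with Benjamini-Hochberg adjustment), and the genotypes did not overlap. With the mean FE of its peaks the fold change was -0.93 and under the 2-fold limit. Dgkz, an abundant form at synapses, had 51.0, 58.6 and 45.4 in WT and 25.1, 39.4 and 41.7 in 5xFAD and was not called (adjusted p = 0.146).

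Of 5 PI 3-kinase subunits, the catalytic Pik3ca was WT only and the catalytic Pik3cd and the regulatory Pik3r2 and Pik3r3 were 5xFAD only, the fifth being Pik3c2a, a class II enzyme that was WT only. Pik3ca had 90.3 and 84.1 in WT replicates 1 and 3 and no peak in replicate 2, and Pik3r3 had 358, 474 and 357 in 5xFAD. Inpp4a, which removes a phosphate from PI(3,4)P2 and protects neurons from excitotoxic death, had 322, 359 and 296 in WT and no peak in 5xFAD. Pip5k1b, a kinase that makes PI(4,5)P2, had 247, 242 and 238 in WT and no peak in 5xFAD, and the neuronal Pip5k1c had 7.06, 3.47 and 4.36 and none. Pip4k2b was in both with 7 regions, and its 5xFAD values of 7.28, 7.57 and 185 differed more among themselves than from WT (23.4, 9.39 and 31.4).

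Inppl1, the SHIP2 phosphatase that acts on the product of PI 3-kinase, was called higher at a region called in both genotypes. It had 8.95, 7.38 and 12.2 in WT and 41.3, 56.5 and 102 in 5xFAD, without overlap (log2 fold change 2.61 ± 0.41 SE, adjusted p = 0.00349, limma with Benjamini-Hochberg adjustment). That region is printed as the shared region with the highest ratio, 7.005 times the WT mean.
Inppl1 exon 4, chr7:101833555-101833686, minus strand, called in both: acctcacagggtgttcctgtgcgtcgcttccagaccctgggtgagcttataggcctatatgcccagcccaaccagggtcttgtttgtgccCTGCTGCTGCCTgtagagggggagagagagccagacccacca
It held 1 match, in exon 4 of 29.

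Serine/threonine phosphatases held 28 mRNAs, 10 WT only, 7 in both and 8 5xFAD only, with a summed FE of 1261, 1407 and 1708 in WT and 675, 963 and 716 in 5xFAD. Of the 7 in both, 3 were called lower (42.9%, against 32.3% of all overlay mRNAs) and 0 higher (against 20.8%). Ppp1r8, an inhibitory subunit of the nucleus, carried 30.4% of the WT sum, and without it the ratio of 5xFAD to WT was 0.771 in place of 0.538 and the samples overlapped. Of the catalytic subunits of protein phosphatase 1, Ppp1cb was WT only, with 106 and 288 in replicates 1 and 3 and no peak in replicate 2, and Ppp1ca and Ppp1cc were 5xFAD only, Ppp1ca with 6.27, 6.17 and 5.68 and Ppp1cc with 91.8, 278 and 119. The spine proteins that target this enzyme, neurabin (Ppp1r9a) and spinophilin (Ppp1r9b), were in both and not called. Ppp1r9b had 21.9, 27.2 and 13 in WT and 16.2, 68.0 and 51.7 in 5xFAD, and its shared region in exon 5 had 21.9, 27.2 and 13 against 16.2, 27.3 and 21.2, an overlap. Without 5xFAD replicate 1 Ppp1r9b was called higher, at a log2 fold change of 1.53. Ppp1r16a, a membrane-bound regulatory subunit, had 191, 279 and 249 in WT and no peak in 5xFAD.

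Ppp1r21, an endosomal protein named as a regulatory subunit, was called lower. It had 210, 196 and 217 in WT and 5.84, 12.2 and 17.2 in 5xFAD, a log2 fold change of -4.14 ± 0.41 (SE) with an adjusted p of 0.000641 (limma, Benjamini-Hochberg). The groups lay far apart. The WT signal came from exon 3 alone, where 5xFAD replicates 2 and 3 had 5.85 and 3.71 and replicate 1 no peak.
Ppp1r21 exon 3, chr17:88545321-88545467, plus strand, called in both: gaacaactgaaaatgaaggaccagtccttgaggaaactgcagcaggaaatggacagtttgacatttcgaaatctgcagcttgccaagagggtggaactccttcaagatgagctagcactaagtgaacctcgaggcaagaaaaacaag
The region is exactly the exon, is printed as a strong shared region without a match to the motif, and had a C content of 19.7%.

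Protein phosphatase 2A, the main tau phosphatase of brain, is built from a catalytic, a scaffold and a variable regulatory subunit, and 9 of its subunit mRNAs had a peak: 3 WT only, 2 in both, 3 5xFAD only and 1 in a lone sample. The catalytic Ppp2ca was 5xFAD only, with 7.82, 9.41 and 10.3. The scaffold Ppp2r1a had 56.0, 53.6 and 41.0 in WT and 12.2, 17.3 and no peak in 5xFAD. All WT samples were above all 5xFAD samples, and it was not called (adjusted p = 0.0813, limma with Benjamini-Hochberg adjustment), while without 5xFAD replicate 3 it was called lower at a log2 fold change of -1.71. The regulatory Ppp2r5b had 247, 392 and 294 in 5xFAD and no peak in WT, and Ppp2r5d had 36.3 and 30.7 in WT replicates 1 and 2 alone. Ppp2r2c, a regulatory subunit found mainly in brain, was called lower, with 65.9, 75.8 and 84.6 in WT and 27.2, 37.1 and 32.8 in 5xFAD (log2 fold change -1.20 ± 0.22 SE, adjusted p = 0.00696). Its 5xFAD peak was in exon 4 and its WT peaks in exons 7, 8 and 9, and with the mean FE of its peaks the fold change turned to 0.35. The call was also lost with the highest FE of its peaks (-0.80) and after median centring (-0.49). The main region of each genotype is printed because they share no base.
Ppp2r2c exon 4, chr5:36927531-36927594, plus strand, called in 5xFAD alone: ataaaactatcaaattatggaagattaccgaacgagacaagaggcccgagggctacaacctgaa
Ppp2r2c exon 7, chr5:36947068-36947237, plus strand, called in WT alone: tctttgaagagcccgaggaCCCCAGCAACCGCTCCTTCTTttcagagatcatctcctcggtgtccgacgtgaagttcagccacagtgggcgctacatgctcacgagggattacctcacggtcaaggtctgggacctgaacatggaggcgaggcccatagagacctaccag
The WT region held 4 overlapping matches and the 5xFAD region none. Calcineurin, the calcium-activated phosphatase, was represented by Ppp3ca, with 21.4, 31.9 and 25.9 in WT over 4 reproducible regions and 29.1 in 5xFAD replicate 3 alone. Ppp5c, a chaperone-bound phosphatase, was called lower, at 65.0, 50.3 and 30.3 in WT and 5.67, 8.89 and no peak in 5xFAD (adjusted p = 0.0259, limma with Benjamini-Hochberg adjustment), and the call was lost without WT replicate 1 or WT replicate 2 (log2 fold change -3.31 and -3.49, against -3.55). Without 5xFAD replicate 3 it was -2.54.

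Tyrosine phosphatases held 19 mRNAs, 6 WT only, 6 in both and 5 5xFAD only. Their summed FE was 2493, 2797 and 2660 in WT and 1523, 1212 and 982 in 5xFAD, and the samples did not overlap. Ptpn13 carried 31.3% of the WT sum. Without it the ratio of 5xFAD to WT was 0.577 in place of 0.467, still without overlap. Ptprz1 and Ptpn13 together made up most of the WT sum, and a sum without both was not taken. Ptprz1, a receptor phosphatase of glia and their precursors, had the highest FE of the mRNAs with a peak in all WT samples and none in 5xFAD, at 863, 904 and 821. The lists place its region at the start codon, while by the RefSeq model it lay in the 5′ UTR. Ptpn23, an endosomal sorting protein, had 153, 156 and 137 in WT, and Ptprb, the receptor phosphatase of endothelium, had 159, 146 and 120, and neither had a peak in 5xFAD. In the other direction, Ptprn, a protein of dense-core vesicles without phosphatase activity, had 163, 47.6 and 368 in 5xFAD, and Ptpn12, which acts on focal adhesion proteins, had 98.9, 145 and 105. The dual-specificity phosphatases were represented by Dusp26, a neuronal phosphatase, alone, with no peak in WT and 332, 268 and 154 in 5xFAD, while Dusp1 and Dusp6 had no peak in any sample.

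Ptpn13, a large phosphatase with several PDZ domains, was called lower and carried the sharpest contrast at a shared region. Over the whole mRNA it had 778, 880 and 834 in WT and 170, 216 and 180 in 5xFAD, a log2 fold change of -2.14 ± 0.20 (SE) with an adjusted p of 0.000555 (limma, Benjamini-Hochberg). All WT samples lay above all 5xFAD samples. The region in exon 18 of 48 held the whole WT value and had 6.78, 8.73 and 5.32 in 5xFAD, while the neighbouring exon 17 had no peak in WT and 163, 207 and 175 in 5xFAD.
Ptpn13 exon 18, chr5:103541082-103541365, plus strand, called in both: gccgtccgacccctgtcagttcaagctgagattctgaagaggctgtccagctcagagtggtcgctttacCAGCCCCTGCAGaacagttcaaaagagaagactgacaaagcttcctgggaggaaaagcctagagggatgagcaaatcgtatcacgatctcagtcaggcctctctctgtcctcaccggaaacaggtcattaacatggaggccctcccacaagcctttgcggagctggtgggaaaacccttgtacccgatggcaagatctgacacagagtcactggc
The region, 284 of the 415 bases of the exon, held 1 match. Ptpra, a receptor phosphatase that activates Src kinases, was called lower at a low FE, 8.42, 9.44 and 5.93 in WT and no peak, 1.87 and 1.73 in 5xFAD (adjusted p = 0.0147), and was not called with pseudocounts of 0.1 or 10 or after median centring.

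The LAR family receptors of synapses differed among themselves. Ptprs was called higher, with 34.0, 31.9 and 35.5 in WT and 107, 136 and 118 in 5xFAD (log2 fold change 1.80 ± 0.20 SE, adjusted p = 0.000955, limma with Benjamini-Hochberg adjustment), and was not called with the highest or the mean FE of its peaks. Ptprd was WT only, with 10.7, 5.85 and 20.4, and Ptprf had 97.5 and 78.3 in 5xFAD replicates 1 and 2 alone. Ptpn5, the striatal-enriched phosphatase that dephosphorylates NMDA receptors and ERK, had 78.9, 75.7 and 78.7 in WT and 409, 114 and 195 in 5xFAD. All 5xFAD samples were above all WT samples, and the adjusted p was 0.0600 (log2 fold change 1.42 ± 0.50 SE). Without 5xFAD replicate 2 it was called higher, at 1.85. Its exon 7 region was called in both genotypes, at 39.2, 41.1 and 41.6 in WT and 218, no peak and 105 in 5xFAD, and is printed as the shared region of the synaptic phosphatase of this list.
Ptpn5 exon 7, chr7:47088490-47088679, minus strand, called in both: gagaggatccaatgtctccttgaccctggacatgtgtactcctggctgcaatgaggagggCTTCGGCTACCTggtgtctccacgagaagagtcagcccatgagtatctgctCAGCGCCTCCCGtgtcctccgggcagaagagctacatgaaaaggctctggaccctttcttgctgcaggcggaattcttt
It spans the whole exon and held 2 separate matches.

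Kinases that act on tau and cyclin-dependent kinases held 25 mRNAs, 10 WT only, 7 in both and 7 5xFAD only. By name the class also holds Cdk5rap1 and Cdk5rap2, which are no kinases. Cdk5rap2 had 111, 126 and 105 in WT and no peak in 5xFAD, and Cdk5rap1 was 5xFAD only. Of the 7 in both, 2 were called higher (28.6%, against 20.8% of all overlay mRNAs) and 0 lower (against 32.3%). The summed FE overlapped, with 433, 562 and 404 in WT and 456, 584 and 662 in 5xFAD. Cdk5, the neuronal kinase of tau, was 5xFAD only at a low and even FE of 5.24, 5.20 and 5.08, from the whole of exon 7, and its activator Cdk5r1 (p35) was WT only, with 7.84 and 7.06 in replicates 2 and 3. Gsk3b had 2.81, 2.52 and 2.66 in WT and 4.34, 2.80 and no peak in 5xFAD, with overlap, and Gsk3a had 2.72 and 3.06 in WT replicates 2 and 3 alone. The other Cdk5 activator, Cdk5r2 (p39), had a peak in WT replicate 2 and in 5xFAD replicate 1 alone. The Cdk5 region is printed as the coding site of the tau kinase that was listed in every 5xFAD sample.
Cdk5 exon 7, chr5:24420731-24420805, minus strand, called in 5xFAD alone: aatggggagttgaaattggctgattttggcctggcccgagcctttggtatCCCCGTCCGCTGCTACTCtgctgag
It held 3 overlapping matches near its 3′ end. Csnk1d, the CK1δ kinase, was called higher, with 12.8, 12.1 and 12.3 in WT and 33.5, 46.1 and 93.2 in 5xFAD (log2 fold change 2.00 ± 0.41 SE, adjusted p = 0.0100, limma with Benjamini-Hochberg adjustment), and its relative Csnk1e was WT only, with 120, 111 and 35.2. Both CK2 subunits listed, Csnk2a2 and Csnk2b, were 5xFAD only. Cdk17, a CDK of postmitotic neurons, was called higher, with 18.8, 10.2 and 7.28 in WT and 118, 94.2 and 96.3 in 5xFAD (3.08 ± 0.38 SE, adjusted p = 0.00135), and its regions lay in exons 6 and 7 in WT and in exons 11 and 13 in 5xFAD. Mark4 had 56.5, 57.8 and 42.4 in WT and 31.0, 38.6 and 52.4 in 5xFAD, Mark1 had 13.2 and 16.1 in 5xFAD replicates 1 and 2 alone, and Mark2 and Mark3 had no peak.

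Growth factor receptors and the kinases downstream of them held 12 mRNAs, 6 WT only, 3 in both and 2 5xFAD only. The summed FE was 481, 467 and 401 in WT and 127, 54.2 and 73.7 in 5xFAD, a ratio of 0.189. Rps6kb1, the S6 kinase downstream of mTOR, carried 64.5% of the WT sum, and without it the ratio was 0.508. It was called lower, with 319, 324 and 228 in WT and 3.13, 3.54 and 5.04 in 5xFAD, a log2 fold change of -5.89 ± 0.27 (SE) with an adjusted p of 4.48e-05 (limma, Benjamini-Hochberg). The groups lay far apart at 1 shared region, in the 3′ UTR. Ntrk2, the BDNF receptor TrkB, had 5.35, 5.32 and 6.75 in WT and no peak in 5xFAD, as did Fgfr1 with 3.22, 5.36 and 4.91 and Fgfr2 with 20.9, 27.5 and 34.7. In the other direction, Akt1 had 34.0 and 54.0 in 5xFAD replicates 1 and 3 and no peak in WT, and Akt2 had no peak in any sample.

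The remaining serine/threonine kinases held 13 mRNAs. The WNK kinases, regulators of chloride transporters, went opposite ways. Wnk1 was called higher, with 30.5, 21.2 and 17.6 in WT and 216, 105 and 221 in 5xFAD (log2 fold change 2.87 ± 0.40 SE, adjusted p = 0.00230, limma with Benjamini-Hochberg adjustment). Its pair of shared regions had the same order, the one in exon 19 with 5.10, 4.68 and 6.48 in WT and 35.5, 36.3 and 24.7 in 5xFAD. Wnk2 was called lower, with 294, 247 and 241 in WT and 47.4, 54.9 and 40.1 in 5xFAD (-2.44 ± 0.22 SE, adjusted p = 0.000498), from regions in exons 14, 15, 19 and 20 in WT and in the 5′ UTR in 5xFAD. With the mean FE of its peaks Wnk2 was not called (-0.78, adjusted p = 0.115). In neither did the genotypes overlap. Tnik, a postsynaptic kinase that regulates the actin cytoskeleton, had 25.4, 23.3 and 27.7 in WT and 47.0, 55.4 and 132 in 5xFAD and was called higher (1.43 ± 0.44 SE, adjusted p = 0.0398). That call was lost without any 1 sample other than 5xFAD replicate 1 (log2 fold change 0.98 to 1.60), and also with the highest or mean FE of its peaks, a replicate block, an FE of at least 5 or an FDR under 100% (0.51 to 1.43, adjusted p of at most 0.327 over all alternatives). Stk11ip, a protein that binds the kinase LKB1, had 207, 211 and 162 in WT and no peak in 5xFAD. Stk38l, the NDR2 kinase, had no peak in WT replicate 1, 538 and 406 in WT replicates 2 and 3, and 6.77, 7.81 and 6.48 in 5xFAD, and was not called (adjusted p = 0.388). Without WT replicate 1 it was called lower, at a log2 fold change of -5.87.

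Most overlay mRNAs carried their peaks at different places in the genotypes. Merged over the 6 lists, the peaks of the 165 mRNAs formed 337 regions, of which 152 were called in WT alone, 116 in 5xFAD alone, 20 in both and 49 in neither. The 20 are 6.94% of the 288 reproducible regions, against 6.26% of all. They numbered 13 without WT replicate 2, 13 without 5xFAD replicate 3, and 12 when a shared region needed identical ends. With a sample left out, both others of its genotype had to list the region, so the number could only stay or fall. Of the 46 overlay mRNAs, 16 had a shared region (34.8%, against 39.2% of all overlay mRNAs) and 30 had none. In 28 of these 30 the distance along the transcript between the nearest WT and 5xFAD regions could be measured, with a median of 757.5 nt and a range of 0 to 3254 nt. Peaks with the same start and end made up 65.8% of the peaks of these mRNAs between 2 samples of a genotype and 8.43% between samples of different genotypes. For all mRNAs the shares were 62.2% and 5.84%.

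**Figure D4:**
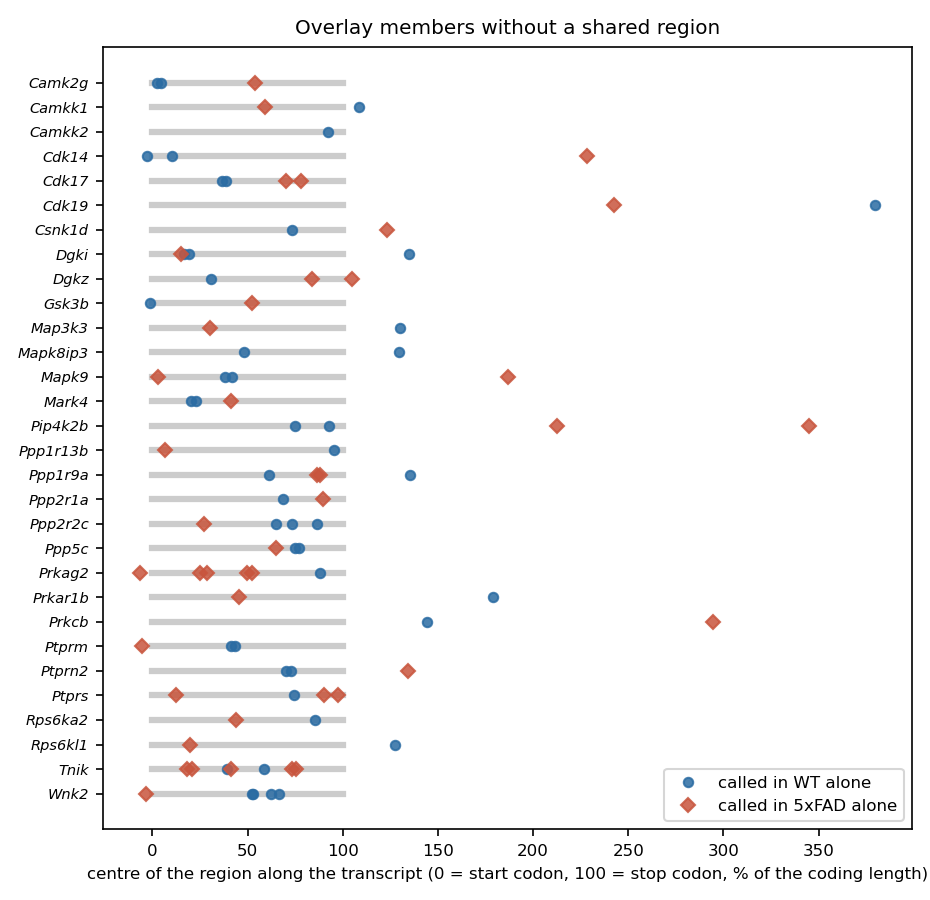
Marks are the centres of regions called in WT alone (circles) or in 5xFAD alone (diamonds) along the transcript in the 30 overlay mRNAs without a shared region, in percent of the coding length, so that values above 100 lie in the 3′ UTR. Regions that did not lie inside a single exon of a coding RefSeq model are left out. This removes the 5xFAD regions of Camkk2 and Mapk8ip3 and the WT region of Ppp1r9a listed at a start codon. In mRNAs such as Cdk17 and Ppp2r2c the circles and diamonds lie apart.

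At the 20 shared regions, 8 had every WT sample above every 5xFAD sample, 4 had the reverse and 8 overlapped. The order was not counted over the 497 shared regions of all mRNAs, so these counts have no background beside them. Of the 20, 16 were coding, 3 lay in a 3′ UTR and 1 at a start codon. The 3′ UTR region of Camk2b, the widest of them, had 16.7, 17.5 and 16.15 in WT and 7.60, 7.44 and 7.49 in 5xFAD. The shared region of Cdk11b, a kinase of transcription and splicing, had 6.28, 3.86 and no peak in WT and 20.3, no peak and 9.80 in 5xFAD, an overlap.

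**Figure D5:**
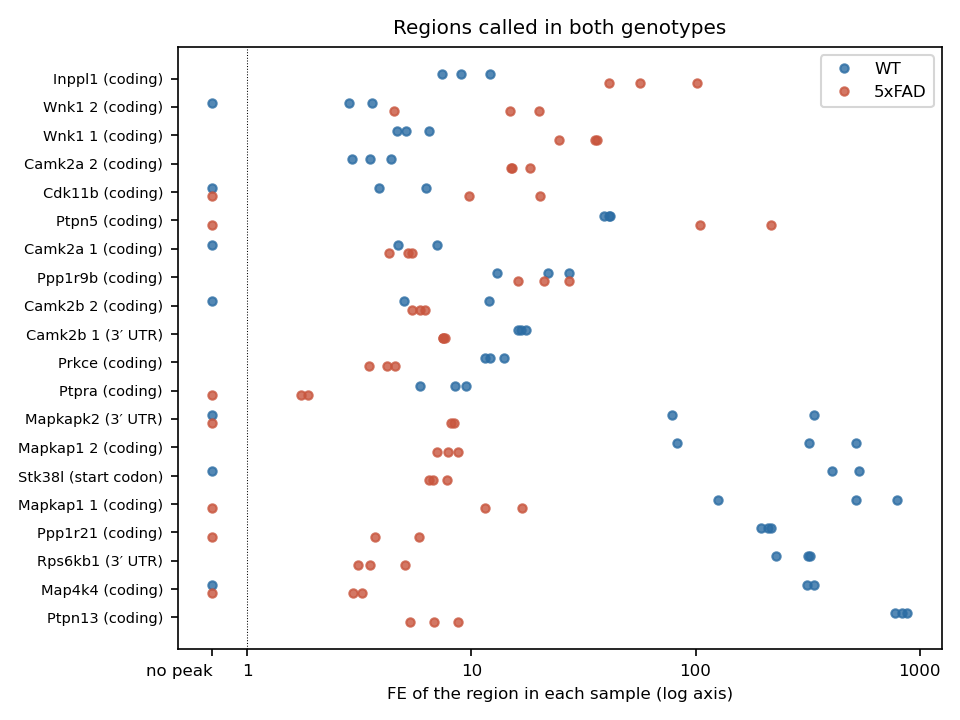
Points are the FE of 1 sample at each of the 20 regions called in both genotypes, on a log axis, with samples without a peak drawn left of 1, and regions of the same mRNA are numbered. The order runs from Inppl1, where 5xFAD was higher, to Ptpn13, where WT was 778 to 880 and 5xFAD 5.32 to 8.73.

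The peaks of these mRNAs lay more in coding sequence and less at stop codons than peaks at large. By the transcript part the lists give, 64.6% ± 0.942 of their peaks were coding in WT and 67.1% ± 3.28 in 5xFAD (SD, n = 3), against 60.2% ± 0.224 and 58.3% ± 0.226 of all peaks. At the stop codon lay 9.10% ± 0.314 and 8.30% ± 0.481, against 13.4% ± 0.0842 and 14.6% ± 0.203. Between genotypes the coding share of these mRNAs overlapped. Their regions were shorter, with a median length of 123 bp for WT regions and 122.5 bp for 5xFAD regions, against 153 and 154 bp over all mRNAs, and 96.0% and 97.5% of the coding ones had an end at an exon boundary, against 91.5% and 90.6%. The motif was present in 23.1% of 65 central windows of WT regions, in 25.0% of 12 windows of shared regions and in 37.3% of 51 windows of 5xFAD regions, against 27.5%, 30.9% and 27.5% over all mRNAs.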

How the data were processed

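acRIP-seq peak lists of 6 hippocampal samples, 3 WT and 3 5xFAD, were analysed. The other 12 libraries of the series were not used here. Per the study's methods, the authors checked reads with FastQC, trimmed adapters with cutadapt 1.9.3, aligned reads to mm10 with HISAT2 2.04 and called peaks in each sample with MACS 1.4.2 against input, with no shift model and no local lambda and a read length of 150 bp. Peaks outside protein-coding exons and peaks overlapping IgG peaks were removed by the authors. The methods define fold enrichment as a ratio, acRIP less IgG over input. The deposited column was taken as that ratio, which was not checked, and it was not scaled between samples. The deposited score is the MACS p-value on a negative log10 scale, multiplied by 10, and was at least 40.05. The deposited FDR column, in percent, lies between 20.15 and 100, although the methods give a threshold of 5%, and its unit is taken as the file gives it. No counts were given, so depth and counting error are unknown here.

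Spreadsheet dates were turned back into numbers (0 to 3 per list) and gene names (at most 1 per list), and 0 lengths then disagreed with start and end. FE was summed per mRNA, and log2(FE + 1) was tested for mRNAs listed in 2 or 3 of the 3 samples of each genotype, with limma 3.58.1 (R 4.3.3; lmFit, eBayes), with Benjamini-Hochberg adjustment over 1121 mRNAs, an adjusted p under 0.05 and a fold of at least 2. The test therefore covers only mRNAs with a peak in both genotypes. The study describes independent samples without saying more, and p-values measure the spread between these samples. Peaks overlapping by at least 1 bp over the 6 lists were merged into regions by position, without regard to mRNA or strand (Python 3.11.15). A region counted as called in a genotype when 2 or 3 samples listed it. Exons and sequences came from the RefSeq annotation and genome GRCm38, the build of mm10. Of 22034 peaks with a RefSeq model of their transcript, 21935 lay inside an exon. Of the 337 regions of kinase and phosphatase mRNAs, 320 lay inside a single exon of a coding RefSeq model. On simulated data with 200 of 1121 mRNAs changed by 2 or 4 on the log2 scale, 64.5% were called with the right sign and 5 unchanged ones were called.

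The members and lists were chosen with earlier results of these data known. Named were up to 10 called overlay members in each direction without overlap, the 8 with the highest FE in each direction listed in all 3 samples of a genotype and in none of the other, every member with a region called in both genotypes, the 5 with the most regions, and the 66 fixed names. Other members were named after their values were seen, to complete a count or family or as the member that dominates a class. Alternatives were other pseudocounts (0.1 and 10), the highest or mean FE of the peaks, median centring, a mean FE of at least 10 and a replicate block. Others were 1 fit over all mRNAs, stricter peaks (FE of at least 5, FDR under 100%), a peak in all 3 samples and stricter overlaps (identical ends, 50% reciprocal). Each sample was also left out in turn, as were the names set apart as no kinase, phosphatase or subunit. Leaving out the strongest mRNA of each class was chosen after seeing the data. A few items are not reported here.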

Additional observations from a re-analysis of the deposited data

How the results depend on the processing

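The calls over the 46 overlay mRNAs were 13 higher and 10 lower. A single fit over all reproducible mRNAs tested 153 and called 43 higher (28.1%, against 32.3% of all) and 62 lower (40.5%, against 39.6%). It admits mRNAs without a reproducible peak in 1 genotype, which largely fixes their direction, so it adds no separate check. Dropping peaks with an FDR of 100% left 30 overlay mRNAs, with 8 called higher (26.7%, against 16.1% of all) and 4 lower (13.3%, against 21.3%). Median centring gave 18 higher and 7 lower. With the replicate number as a block 11 were higher (23.9%, against 18.4% of all) and 10 lower (21.7%, against 29.5%). The labels do not say whether an equal number marks a pair. Deviations of WT and 5xFAD samples with the same number correlated at r = -0.0004, -0.0077 and -0.035 over 1121 mRNAs. Samples with different numbers gave -0.0353 to 0.0381. No pairing was seen in these values, but they cannot exclude a shared litter or day. Without 1 sample at a time, 9 to 14 were called higher, 7 to 11 lower, 55 to 75 were WT only, 38 to 43 in both and 32 to 45 5xFAD only, and the ratio of summed FE was 0.750 to 0.816. Without the names set apart as no kinase, phosphatase or subunit it was 0.859. The 20 shared regions became 11 with an FE of at least 5, 6 with an FDR under 100%, 9 with a peak in all 3 samples, 12 with identical ends and 13 to 17 without 1 sample. With 1 sample left out, both others of its genotype had to list a peak. The counts of mRNAs in both genotypes and of shared regions could then only stay or fall.

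Of 23 called mRNAs named in the text, 12 kept their call under every alternative that gave a value, and of 16 not called 7 gained a call under some alternative. The fold change of Ppp2r2c turned from -1.20 to 0.35 with the mean FE of the peaks, where 1 strong 5xFAD peak is set against the average of 3 unequal WT peaks. The number of samples and the absence of read counts limit the precision, and an mRNA without a listed peak may lie just under the caller's threshold.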

Other observations

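Kinases, phosphatases and close partners outside these gene families were counted from a list of 130 names, of which 79 had a peak. Of these, 29 were WT only (39.2% of the 74 that were reproducible, against 40.4% of all mRNAs), 25 were in both (33.8%, against 24.9%) and 20 were 5xFAD only (27.0%, against 34.6%). Of the 25, 7 were called higher (28.0%, against 20.8% of all) and 6 lower (24.0%, against 32.3%) in 5xFAD by limma with Benjamini-Hochberg adjustment, and their median log2 fold change was 0.77, against -0.47 over all overlay mRNAs. The examples below were chosen after their values were seen. Erbb4, the neuregulin receptor of interneurons, was called higher, with an FE of 13.3, 9.86 and 12.7 in WT and 408, 490 and 469 in 5xFAD. Synj1, the phosphoinositide phosphatase of synaptic vesicle recycling, was called higher, with 13.4, 11.6 and 14.1 in WT and 160, 205 and 185 in 5xFAD. The salt-inducible kinases, relatives of AMPK, were listed in opposite genotypes: Sik3 was called lower, with 402, 457 and 452 in WT and 4.20, 4.02 and 2.93 in 5xFAD, and Sik1 had no peak in WT and 1385, 1783 and 990 in 5xFAD. In each of these mRNAs the genotypes did not overlap.

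The mTOR pathway was listed on both sides. Mtor itself had no peak in WT replicate 1, 160 and 161 in WT replicates 2 and 3, and 91.3, 126 and 118 in 5xFAD, and was not called. Rictor, the defining subunit of mTORC2, was WT only, with 80.8, 88.6 and 77.2, and Rptor, that of mTORC1, was 5xFAD only, with 16.0, 16.5 and 37.6. Of the repressors of mTORC1, Tsc1 had 114 and 115 in WT replicates 1 and 3 alone, and Tsc2 had 206, 23.7 and 100.4 in 5xFAD alone.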
